A study of Mus musculus with 12 samples.

Results

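The comparison described here is that of mouse HoxB8-ER cells expressing CSF3R_T618I alone with the same cells carrying empty vectors. Its members are the 3 arrays labelled HoxB-CSF3R_T618I and the 3 arrays labelled HoxB-Empty-Vector, chosen by their titles, which make 6 of the 12 arrays in the series. HoxB8-ER cells are immortalised mouse myeloid progenitors. Their self-renewal rests on a HoxB8 protein fused to the estrogen receptor, which is active while the medium holds estrogen, and washing the hormone out lets them mature into neutrophils. All cells were grown with stem cell factor in conditioned medium, received a GFP vector and an mCherry vector by retrovirus, were sorted for both colours and were collected 24 h after estrogen withdrawal. In the CSF3R_T618I cells the mCherry vector, an MSCV retrovirus, carried the mutant human receptor and the GFP vector was empty, whereas in the controls both vectors were empty. The remaining 6 arrays, from cells with CEBPA_V314VW and from cells with both mutations, entered the fit only to share the estimate of the spread and to test the interaction. The replicates, A to C, are named biological replicates of 1 line in the series' text, but whether they came from separate transductions is not given in the sources used here, so the p-values measure the spread between these samples.

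CSF3R is the receptor for granulocyte colony-stimulating factor, the cytokine that drives neutrophil production. It has no kinase of its own and signals through bound JAK kinases, which phosphorylate STAT transcription factors, and through the RAS–ERK and PI3K pathways; SOCS proteins and phosphatases, themselves made in response to the signal, then switch it off. The T618I change lies next to the membrane and keeps the receptor active without its ligand. Neutrophil maturation in response to this receptor is well known, so the account below is ordered by the other pathways and gene families, from the receptor inwards and then outwards to the cell surface, metabolism, growth and the cell cycle.

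Clariom S Mouse arrays give 1 log2 signal per probe set, and 22142 gene probe sets were tested. The median gene signal lay between 6.59 and 6.76 on all arrays, correlations within groups ran from r = 0.987 to 0.995, and precision is limited by 3 arrays per group. CSF3R_T618I replicate C stood apart: its background controls averaged 5.25, against 4.98 and 4.99 on replicates A and B, its exon controls averaged 8.79, against 9.04 and 9.0, and it had the lowest array weight of all, 0.32. Results were therefore recomputed with each of the 12 arrays left out in turn. Since the highest background mean of any array was 5.27, a group mean at or below that value is treated as background.

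Mouse Csf3r read 11.31, 11.36 and 11.49 with empty vector and 12.08, 12.02 and 12.16 with CSF3R_T618I, 0.70 ± 0.10 (SE) higher on the log2 scale with an adjusted p of 4.33e-04. The groups did not overlap, but whether the mouse probes read the transduced receptor is not known, so this does not check the labels. Cebpa, the transcription factor that directs granulocyte commitment, read 10.99, 11.04 and 11.07 with empty vector and 10.60, 10.82 and 10.73 with CSF3R_T618I, a difference of −0.32 ± 0.11 with an adjusted p of 0.152. Hoxb8 differed by −0.17 ± 0.13 with an adjusted p of 0.587, and its groups overlapped. The labelled cell type was checked on 12 primary granule genes, which granulocyte–macrophage progenitors and promyelocytes express: 0 of 12 lay at background, and their mean was 12.67 to 12.68 on the empty vector arrays and 12.47 to 12.53 on the CSF3R_T618I arrays.

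More probe sets were higher than lower with CSF3R_T618I. At an adjusted p below 0.05, 830 probe sets rose (3.75% of those tested) and 586 fell (2.65%); the words rose and fell below always mean this. With a change of at least 2-fold as well, 302 were called higher (1.36%) and 77 called lower (0.348%). Groups did not overlap for 378 of these 379 called probe sets. For genes named below because they passed, groups that do not overlap are therefore a description and no separate support. Most of the falls were small, since 509 of the 586 were under 2-fold, against 528 of the 830 rises. A change is said to have held where it stayed below 0.05 in the same direction in each of the 12 fits that left out 1 array; 535 rises (2.42%) and 240 falls (1.08%) did so, and 268 of the higher and 49 of the lower calls stayed calls throughout. The median change over all probe sets was −0.01.

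Members of 58 gene lists were counted against these shares, and each list's median change is given beside that of all probe sets. The lists and their members were chosen with earlier results of these data known, so the counts and their ranking are a description. The sign of a median near 0 depended on CSF3R_T618I replicate C: without it 8 of the 58 list medians changed sign, all of them at most 0.06 in size with every array. Mature neutrophil genes moved most as a list: 36 of 44 rose (34 held), 0 fell, and the median change was 1.92. Their list mean was 8.13 to 8.21 on the empty vector arrays and 9.92 to 10.15 on the CSF3R_T618I arrays. In bulk samples, a larger share of maturing cells and more RNA per cell cannot be told apart, and this holds for every list below whose genes maturing neutrophils also express. Primary granule genes were slightly lower: 0 of 12 rose and 2 fell (16.7%, 2 held), Nkg7 and Igfbp4, with a median of −0.11. Of the 12 changes 10 were negative, or 8 without CSF3R_T618I replicate C, and the list means given above did not overlap.

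**Figure D1:**
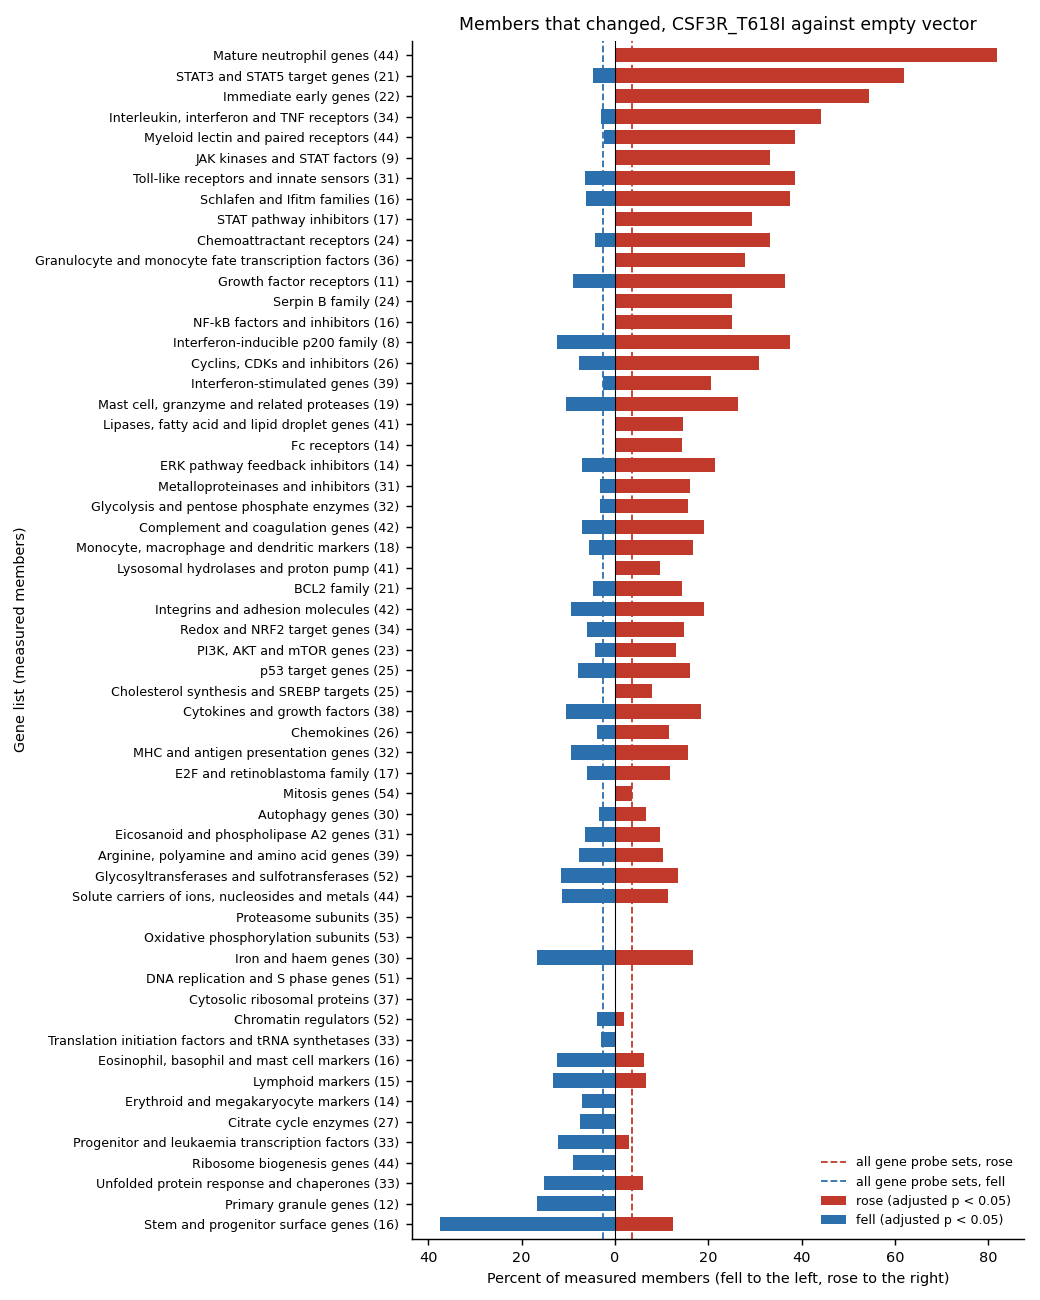
Percent of measured members of each of 58 gene lists that rose (right, red) or fell (left, blue) at an adjusted p below 0.05, CSF3R_T618I against empty vector, with the number of measured members in brackets. The dashed lines mark all gene probe sets (3.75% rose, 2.65% fell). Lists and members were chosen with earlier results of these data known. The largest shares rising were those of the mature neutrophil, STAT target and immediate early lists, the largest share falling was that of stem and progenitor surface genes, and 4 lists had 0 members past the threshold.

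Within the JAK/STAT pathway itself, rises were found among the signal carriers, the feedback inhibitors and the target genes. Of 9 measured JAK kinases and STAT factors 3 rose (2 held), 0 fell, and the median change was 0.01. Jak2, the kinase bound to this receptor, read 9.09, 8.93 and 9.15 with empty vector and 9.96, 9.93 and 9.56 with CSF3R_T618I, and Stat3 read 10.69, 10.75 and 10.75 with empty vector and 11.25, 11.34 and 11.29 with CSF3R_T618I. Every CSF3R_T618I array was above every empty vector array for both, with changes of 0.76 ± 0.15 and 0.56 ± 0.10. Stat6 differed by 0.47 ± 0.10, with an adjusted p of 0.0164 that rose above 0.05 when CSF3R_T618I replicate B or empty vector replicate B or C was left out.

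Among 17 STAT pathway inhibitors 5 rose (4 held), 0 fell, and the median was 0.20, or 0.12 without CSF3R_T618I replicate C. Socs3, which binds the activated receptor and blocks its JAK, read 7.62, 7.52 and 7.49 with empty vector and 8.95, 8.90 and 8.87 with CSF3R_T618I. Cish, a SOCS family member induced by STAT5, read 6.91, 6.70 and 6.49 with empty vector and 8.12, 8.17 and 7.83 with CSF3R_T618I. These groups were well apart, by 1.36 ± 0.10 and 1.34 ± 0.14, and both changes held. Ptpn1, a phosphatase that acts on JAK2, read 10.00, 10.04 and 10.06 with empty vector and 10.96, 10.74 and 10.53 with CSF3R_T618I. It rose by 0.71 ± 0.12, with CSF3R_T618I replicate C the lowest of its group. Socs2 rose by 0.61 ± 0.15 and did not hold.

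Of 21 measured STAT3 and STAT5 target genes 13 rose (11 held), 1 fell (1 held), and the median was 0.53. Lrg1, a secreted glycoprotein of the acute phase and of neutrophil granules, read 8.60, 8.34 and 8.04 with empty vector and 10.61, 10.49 and 10.56 with CSF3R_T618I, a rise of 2.22 ± 0.17. The interleukin-4 receptor chain Il4ra rose by 2.47 ± 0.09, the atypical IκB protein Bcl3 by 1.69 ± 0.16, and Osm, a cytokine of the interleukin-6 family, by 1.74 ± 0.20. All 4 were higher on every CSF3R_T618I array. The fall was that of Fgl2, by 0.69, named after its values were seen. The list was put together from genes known to respond in other cells, but with earlier results of these data known. Its share of rises is therefore a description and no independent support, and it is not a list of sites bound in these cells.

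The promoters of these feedback and target genes are shown because STAT dimers recognise the palindrome TTCNNNGAA, searched here on both strands, which are identical for it, in the RefSeq window from 250 bases before to 50 bases after each start site (build GRCm38.p6). Of the 18 members of both lists that rose, 14 had such a window and 3 held the motif, Socs3, Cish and Tnfrsf1a, the last a receptor for tumour necrosis factor that rose by 0.62 and did not hold. The capitals mark the motif, 1 copy beginning 154 bases before the start of Socs3, 2 copies at the start of Cish (the second 11 bases further on) and 1 copy 244 bases before the start of Tnfrsf1a. Their windows are chr11:117969317-117969616 (minus strand), chr9:107296409-107296708 (plus strand) and chr6:125349473-125349772 (plus strand).
Socs3: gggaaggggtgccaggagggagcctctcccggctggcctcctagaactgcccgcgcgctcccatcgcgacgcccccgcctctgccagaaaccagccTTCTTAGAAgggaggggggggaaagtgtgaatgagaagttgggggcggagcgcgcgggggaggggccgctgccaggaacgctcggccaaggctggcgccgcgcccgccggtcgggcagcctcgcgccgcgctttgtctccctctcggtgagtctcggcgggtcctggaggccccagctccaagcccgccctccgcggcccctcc
Cish: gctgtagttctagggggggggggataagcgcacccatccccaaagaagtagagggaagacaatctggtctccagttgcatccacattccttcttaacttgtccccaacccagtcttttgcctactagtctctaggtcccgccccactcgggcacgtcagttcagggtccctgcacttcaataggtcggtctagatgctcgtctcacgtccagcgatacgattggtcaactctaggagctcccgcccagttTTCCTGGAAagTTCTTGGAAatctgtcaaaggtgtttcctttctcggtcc
Tnfrsf1a: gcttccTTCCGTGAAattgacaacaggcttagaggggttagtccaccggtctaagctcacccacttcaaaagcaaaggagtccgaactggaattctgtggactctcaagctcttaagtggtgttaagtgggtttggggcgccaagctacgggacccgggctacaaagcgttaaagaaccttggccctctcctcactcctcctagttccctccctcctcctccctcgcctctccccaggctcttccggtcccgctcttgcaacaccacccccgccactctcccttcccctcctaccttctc
The 11 others, among them Il4ra, Lrg1 and Bcl3, did not hold these letters in the window. Over all 15683 measured genes with a window the motif was in 1416 (9.03%), over the 611 genes that rose it was in 75 (12.3%), and over the 438 that fell in 35 (7.99%). These shares are a description with no test, and they cover 19133 windows of 300 bases, since some genes have several start sites; a match is not a bound site.

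Immediate early genes, which growth factor signals switch on within minutes through ERK and serum response factor, were raised as a list: 12 of 22 rose, all 12 held, 0 fell, and the median change was 0.78. Zfp36, an RNA-binding protein that hastens the decay of cytokine mRNAs, read 7.99, 7.54 and 7.62 with empty vector and 9.95, 9.68 and 9.71 with CSF3R_T618I, a rise of 2.06 ± 0.17. Ier3 read 8.15, 8.12 and 8.11 with empty vector and 9.40, 9.55 and 9.43 with CSF3R_T618I, with less than 0.2 between replicates of a group, and rose by 1.33 ± 0.10. Btg2, which restrains proliferation, rose by 1.46 ± 0.17 and Egr1 by 2.62 ± 0.22. The members that did not pass ranged down to −0.47.

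The list of ERK pathway feedback inhibitors went both ways, but its 3 rises were in phosphatases that act mainly on other kinases. Of 14 members 3 rose (3 held) and 1 fell (1 held), with a median of −0.03. Dusp1, a nuclear phosphatase that acts mainly on p38 and JNK, read 8.21, 7.76 and 7.99 with empty vector and 9.38, 9.27 and 9.25 with CSF3R_T618I; Dusp16 and Dusp10, which act on the same stress kinases, rose by 0.94 ± 0.14 and 0.69 ± 0.12. Dusp6, the cytoplasmic phosphatase specific for ERK, read 9.01, 8.96 and 9.08 with empty vector and 8.14, 8.24 and 8.08 with CSF3R_T618I, so all 3 CSF3R_T618I arrays were below all controls, with a change of −0.86 ± 0.11 and an adjusted p of 3.60e-04. The Sprouty and Spred genes of the list did not pass.

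Of 23 PI3K, AKT and mTOR genes 3 rose (3 held) and 1 fell (1 held), with a median of 0.05, and no catalytic PI3K subunit, AKT or mTOR gene was among them. Pik3r5, the p101 regulatory subunit of PI3Kγ that couples the kinase to G protein-coupled receptors, read 7.50, 7.47 and 7.52 with empty vector and 9.69, 9.63 and 9.57 with CSF3R_T618I. Pik3ip1, a transmembrane inhibitor of PI3K, read 8.97, 9.15 and 9.03 with empty vector and 7.72, 7.66 and 7.70 with CSF3R_T618I. The changes were 2.13 ± 0.18 for the subunit and −1.36 ± 0.13 for the inhibitor, with no overlap of groups for either. The adaptor Pik3ap1 rose by 0.67 ± 0.11, and Ddit4, an inhibitor of mTORC1, by 0.66 ± 0.11.

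Among 16 NF-κB factors and inhibitors 4 rose (3 held), 0 fell, and the median was 0.09. The largest change in this list was that of the inhibitor Nfkbia, which holds NF-κB in the cytoplasm and is itself an NF-κB target. It read 8.02, 7.95 and 7.78 with empty vector and 9.44, 9.25 and 9.30 with CSF3R_T618I, a rise of 1.41 ± 0.10. Nfkbiz, a nuclear regulator of the same family, rose by 0.89 ± 0.13. Bcl3, the atypical IκB protein given above, rose by 1.69 but is not in this list. Nfkb2, the precursor of the p52 subunit, read 7.30, 7.57 and 7.77 with empty vector and 8.34, 8.18 and 8.25 with CSF3R_T618I and rose by 0.71 ± 0.13. Ikbke differed by 0.60 ± 0.13 and did not hold.

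**Figure D2:**
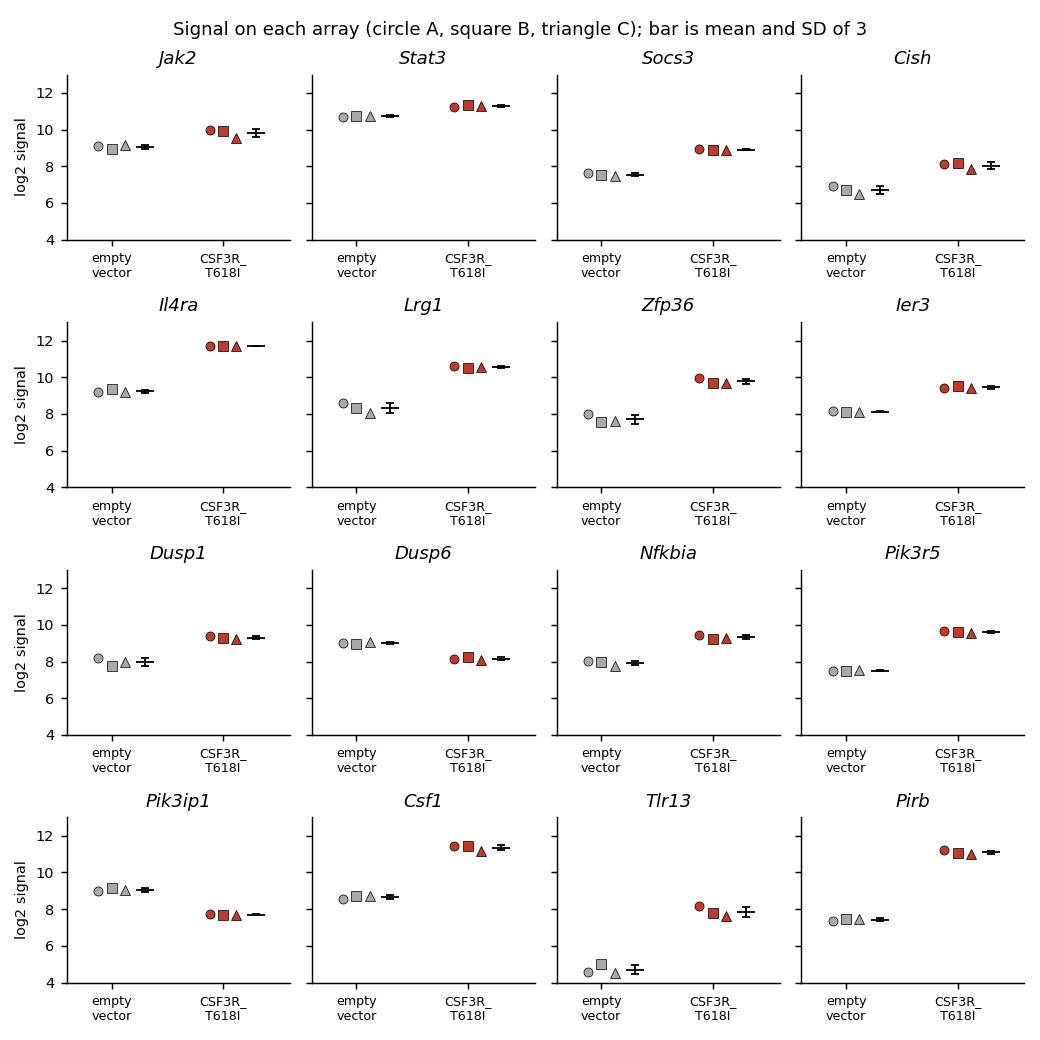
log2 signal of 16 genes named in the text on each empty vector array (grey) and each CSF3R_T618I array (red), with circles, squares and triangles for replicates A, B and C and a bar for the mean and SD of 3 arrays. The 16 were picked from genes that passed, so that the 2 groups do not overlap for any of them is no separate support. Dusp6 and Pik3ip1 are lower with CSF3R_T618I and the other 14 are higher.

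Receptors for haematopoietic growth factors divided. Of 11 measured, 4 rose (3 held) and 1 fell (1 held), with a median of 0.01. Csf2rb, the signalling chain shared by the receptors for GM-CSF, IL-3 and IL-5, read 10.44, 10.50 and 10.54 with empty vector and 11.37, 11.39 and 11.14 with CSF3R_T618I, a rise of 0.81 ± 0.11. Csf1r, the receptor for macrophage CSF, read 6.96, 6.68 and 6.80 with empty vector and 8.45, 7.94 and 8.02 with CSF3R_T618I, a rise of 1.33 ± 0.22 with CSF3R_T618I replicate A the highest. Kit, the receptor for the stem cell factor in the medium, fell, with a change of −1.67 ± 0.10.

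Interleukin, interferon and TNF receptors were among the lists with the most rises: 15 of 34 rose, of which 8 held, 1 fell and did not hold, and the median was 0.42. With empty vector replicate C or CSF3R_T618I replicate A left out, the number that rose was 9. Il13ra1, a chain of the interleukin-4 and interleukin-13 receptors that pairs with the Il4ra product, read 5.05, 4.96 and 4.69 with empty vector and 7.17, 7.24 and 6.68 with CSF3R_T618I, from background to 1.76 above it. Il21r read 4.04, 3.83 and 3.89 with empty vector and 6.15, 5.81 and 5.43 with CSF3R_T618I, from well under background to 0.52 above it, so its level stayed low. Il7r likewise rose from background, to 2.07 above it. The decoy receptor for interleukin-1, Il1r2, was 4.26 ± 0.15 higher.

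Of 38 cytokines and growth factors 7 rose (7 held) and 4 fell (3 held), with a median of 0.03. Csf1, macrophage colony-stimulating factor, read 8.54, 8.71 and 8.70 with empty vector and 11.42, 11.46 and 11.18 with CSF3R_T618I, a rise of 2.70 ± 0.10 on the same arrays as that of its receptor Csf1r. Inhba, the subunit of activin A, read 7.71, 7.30 and 7.23 with empty vector and 9.31, 9.28 and 9.31 with CSF3R_T618I, a rise of 1.88 ± 0.17. The controls overlapped CSF3R_T618I for neither gene. Il1b, which encodes interleukin-1β, read 5.48, 4.70 and 5.75 with empty vector and 7.88, 7.26 and 6.77 with CSF3R_T618I, near background in the controls, and rose by 1.99 ± 0.29. The rises also took in Tnf, Il1rn, Tnfsf9 and Tnfsf14, by 1.13 to 1.62, and the falls Il15, Il12a and Vegfb, by 1.39, 1.02 and 0.42; these 7 were named after their values were seen. The largest fall was in Angpt1, the ligand of the Tie2 receptor and a product of stem cells, which read 8.53, 8.37 and 8.68 with empty vector and 5.89, 6.41 and 5.75 with CSF3R_T618I.

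Among 26 chemokines 3 rose (3 held) and 1 fell (0 held), and 6 lay at background in both groups. Ccl6 read 7.22, 7.14 and 7.16 with empty vector and 9.29, 9.20 and 9.07 with CSF3R_T618I, Ccl3 rose by 1.85 ± 0.18 and Cxcl2, a neutrophil attractant, by 1.58 ± 0.18. Of 24 receptors for chemokines and other chemoattractants, Cxcr2 not among them, 8 rose (5 held) and 1 fell (0 held), with a median of 0.22, and with empty vector replicate B or C left out 5 rose. Ccr1, a receptor for Ccl3, read 8.50, 8.25 and 8.50 with empty vector and 10.51, 10.50 and 10.09 with CSF3R_T618I, a rise of 1.95 ± 0.16. C5ar1, the complement C5a receptor of neutrophils, read 6.32, 6.12 and 6.23 with empty vector and 7.84, 8.07 and 7.81 with CSF3R_T618I, a rise of 1.68 ± 0.18, and its partner C5ar2 rose by 0.90 ± 0.16. Cxcr5 rose from background, but only to 0.46 above it.

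Of 31 Toll-like receptors and innate sensors 12 rose (8 held) and 2 fell (2 held), with a median of 0.45. Tlr13, an endosomal sensor of bacterial ribosomal RNA in mice, read 4.57, 4.99 and 4.52 with empty vector and 8.16, 7.81 and 7.61 with CSF3R_T618I, from background to 2.59 above it, which is at least 6.03-fold. Tlr2, which senses bacterial lipopeptides at the cell surface, read 8.08, 8.09 and 7.69 with empty vector and 10.49, 10.25 and 10.42 with CSF3R_T618I. Tlr1, its partner, read 5.16, 5.92 and 4.82 with empty vector and 7.52, 7.35 and 7.45 with CSF3R_T618I, with more spread among the controls, and rose by 2.13 ± 0.30. Cd180, a Toll-like receptor homologue without a signalling domain, fell and read 9.22, 9.29 and 8.98 with empty vector and 7.05, 7.38 and 7.11 with CSF3R_T618I. For each of these 4 genes the groups did not overlap.

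**Figure D3:**
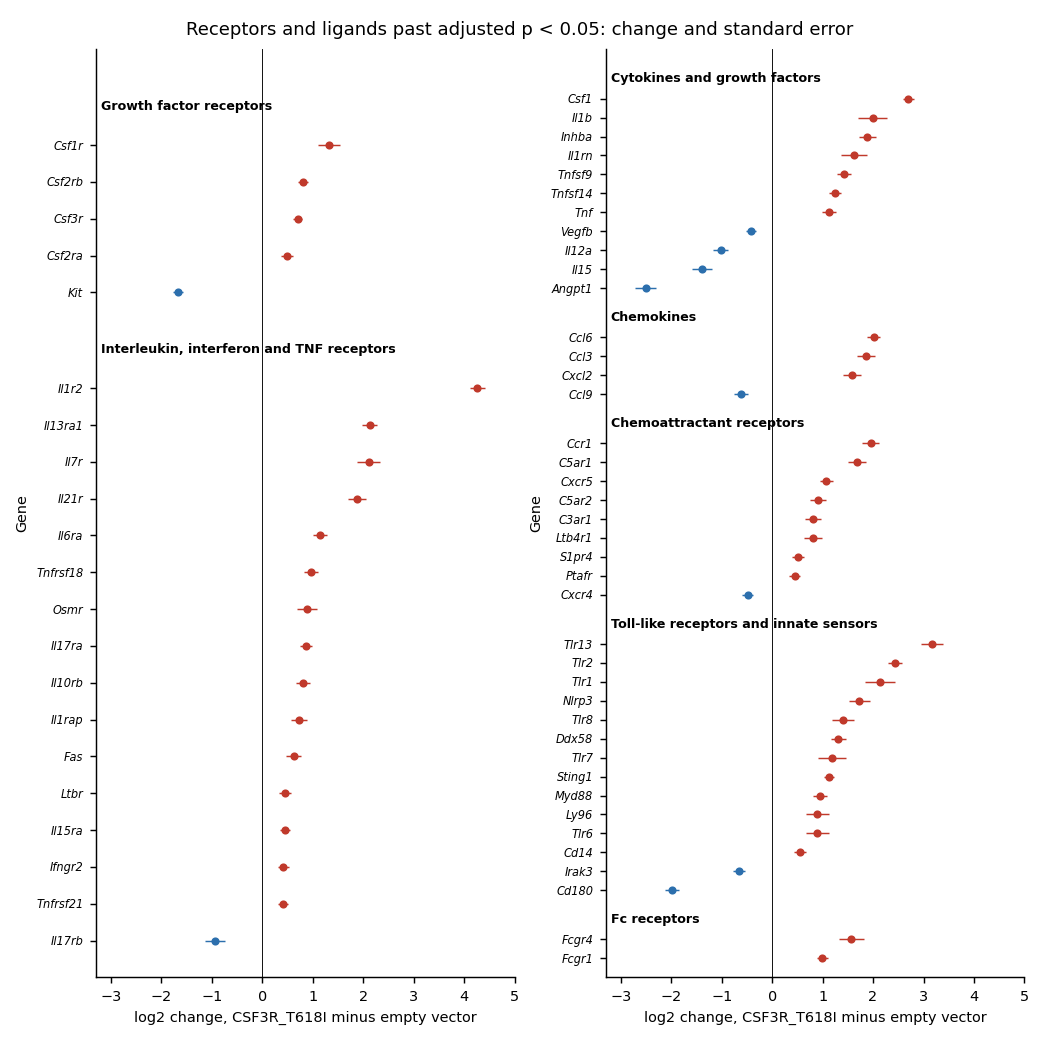
log2 change (CSF3R_T618I minus empty vector) with its standard error for the members of 7 receptor and ligand lists that passed an adjusted p below 0.05, red for rises and blue for falls. The rises outnumber the falls in each list, and the falls with the largest size are those of Angpt1, Cd180 and Kit.

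Paired and lectin receptors of myeloid cells, many of which carry inhibitory motifs that recruit phosphatases, had 17 of 44 members rising (15 held) and 1 that fell (0 held), with a median of 0.29. Pirb, an inhibitory receptor that binds MHC class I, read 7.35, 7.47 and 7.48 with empty vector and 11.20, 11.07 and 11.03 with CSF3R_T618I, a rise of 3.67 ± 0.21 and at 12.7-fold among the largest in the data. Pilra, also inhibitory, read 6.98, 6.85 and 7.07 with empty vector and 10.12, 9.89 and 9.49 with CSF3R_T618I, and Lilrb4a read 9.36, 9.28 and 9.15 with empty vector and 12.15, 12.16 and 11.50 with CSF3R_T618I. In all 3 the CSF3R_T618I arrays lay more than 2 log2 units above the controls, replicate C lowest. Cd300ld, whose product signals through an activating adaptor, rose by 2.82 ± 0.20. Genes of the Pir, Lilr, Pilr and Cd300 clusters have close copies, so probes of a member may read its neighbours. Of 14 Fc receptors 2 rose (2 held) and 0 fell: Fcgr4 read 6.67, 6.72 and 6.53 with empty vector and 8.60, 8.38 and 7.63 with CSF3R_T618I, and Fcgr1, the high-affinity IgG receptor, rose by 1.00 ± 0.11.

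Among 42 integrins and adhesion molecules 8 rose (5 held) and 4 fell (2 held), with a median of 0.09, or 0.06 without CSF3R_T618I replicate C. The chains of the leukocyte integrin Mac-1 rose together: Itgam read 9.71, 9.81 and 9.68 with empty vector and 11.18, 11.13 and 11.07 with CSF3R_T618I and its partner Itgb2 read 9.88, 9.81 and 9.64 with empty vector and 10.94, 10.78 and 10.77 with CSF3R_T618I, changes of 1.39 ± 0.13 and 1.05 ± 0.11. Mcam, an adhesion molecule better known from endothelium and melanoma, read 5.42, 6.12 and 5.37 with empty vector and 7.97, 7.97 and 8.04 with CSF3R_T618I, a rise of 2.36 ± 0.23. Itga9, an integrin chain, read 6.46, 6.50 and 6.82 with empty vector and 5.13, 5.13 and 5.85 with CSF3R_T618I and fell, a change of −1.22 ± 0.21, with CSF3R_T618I replicate C the highest of its group.

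Among 32 genes of glycolysis and the pentose phosphate pathway 5 rose (5 held) and 1 fell (0 held), with a median of 0.02, and the rises were those of 4 transporters and a glycogen enzyme. Slc2a3, the high-affinity glucose transporter GLUT3, read 8.04, 8.24 and 8.28 with empty vector and 10.47, 10.44 and 10.22 with CSF3R_T618I, a rise of 2.19 ± 0.13. Slc2a1, the glucose transporter GLUT1, read 10.85, 10.83 and 10.59 with empty vector and 11.79, 11.54 and 11.55 with CSF3R_T618I, a rise of 0.87 ± 0.13, and Slc16a3, which exports lactate, rose by 0.78 ± 0.10. The remaining rises were Pygl, the liver-type enzyme that breaks down glycogen, which read 10.58, 10.57 and 10.67 with empty vector and 11.55, 11.46 and 11.42 with CSF3R_T618I, and the transporter Slc2a6, by 0.67, named after its values were seen. No hexokinase, aldolase, enolase or lactate dehydrogenase gene rose. Hk3, also named after its values were seen, was 0.51 lower and did not hold.

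In the lists of citrate cycle enzymes and oxidative phosphorylation subunits 0 genes had a change that held. Of 27 genes listed as citrate cycle enzymes, not all of them mitochondrial, 0 rose and 2 fell (0 held). These were the isocitrate dehydrogenase genes Idh1 and Idh2, by 0.47 and 0.44, and 6 of the 27 changes were positive. Of 53 oxidative phosphorylation subunits 0 rose and 0 fell at an adjusted p below 0.05 in limma, where 4 were lower at an unadjusted p below 0.05 and 1 passed by the methods' t-test. The changes ran from −0.35 to 0.24, 11 of 53 were positive, and the median was −0.09, or −0.06 without CSF3R_T618I replicate C, where 20 were positive and the median of all probe sets was −0.04. Ndufa4 had the largest of these changes and read 11.96, 11.93 and 11.99 with empty vector and 11.74, 11.52 and 11.57 with CSF3R_T618I, an adjusted p of 0.0581.

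Lipid genes changed at a few enzymes. Of 41 lipase, fatty acid and lipid droplet genes 6 rose (4 held), and 0 fell. The acyltransferases that complete triglyceride synthesis both rose: Dgat2 read 10.04, 9.89 and 9.73 with empty vector and 11.68, 11.51 and 11.45 with CSF3R_T618I and Dgat1 read 7.96, 8.04 and 8.31 with empty vector and 9.59, 9.43 and 9.10 with CSF3R_T618I. Lipe, hormone-sensitive lipase, read 8.43, 8.47 and 8.67 with empty vector and 9.37, 9.31 and 9.25 with CSF3R_T618I, so enzymes of triglyceride assembly and breakdown were higher on the same arrays, with changes of 1.66 ± 0.14, 1.27 ± 0.14 and 0.79 ± 0.10; Lipg, the endothelial lipase, rose by 4.60 ± 0.16. Of 25 cholesterol synthesis genes 2 rose (1 held) and 0 fell; the change that held was that of the cholesterol exporter Abca1, from background to 1.30 above it, and of the synthesis enzymes only Pmvk passed, without holding. Of 31 eicosanoid genes 3 rose (3 held) and 2 fell (2 held): Ptgs2, the inducible cyclooxygenase, read 6.18, 6.14 and 6.11 with empty vector and 7.13, 7.42 and 6.58 with CSF3R_T618I, Pla2g7 rose by 0.96 ± 0.14, and Cbr1, a carbonyl reductase, read 7.08, 6.92 and 6.72 with empty vector and 6.09, 5.99 and 5.99 with CSF3R_T618I and fell. Alox5ap was the third rise, of 0.74 (named after its values were seen), and Ptgds fell to the background level.

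Of 39 arginine, polyamine and amino acid genes 4 rose (4 held) and 3 fell (0 held), with a median of −0.05. Slc7a11, the cystine–glutamate exchanger, read 9.26, 9.29 and 9.13 with empty vector and 10.63, 10.42 and 10.69 with CSF3R_T618I, a rise of 1.35 ± 0.12, and Slc7a5, the carrier of large neutral amino acids, read 11.62, 11.70 and 11.67 with empty vector and 12.39, 12.44 and 12.60 with CSF3R_T618I, a rise of 0.81 ± 0.10. The arginine-using enzymes Nos2 and Arg2 rose from background to 4.21 and 1.32 above it. Of 34 redox genes 5 rose (4 held) and 2 fell (1 held): Mgst1, a membrane glutathione transferase, read 8.96, 8.78 and 8.86 with empty vector and 10.87, 10.78 and 10.65 with CSF3R_T618I, Hmox1, haem oxygenase, read 7.91, 7.64 and 7.57 with empty vector and 9.49, 9.20 and 9.29 with CSF3R_T618I, and Nqo1 rose from background to 0.70 above it. Gstm1, a cytosolic glutathione transferase, went the other way, 12.67, 12.42 and 12.50 with empty vector and 11.84, 11.78 and 11.57 with CSF3R_T618I, with an adjusted p of 7.21e-04.

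Iron genes rose and fell in equal number, 5 and 5 of 30, with 4 rises and 1 fall that held. Steap4, a metalloreductase induced in inflammation, read 5.76, 5.23 and 5.90 with empty vector and 8.84, 8.70 and 8.78 with CSF3R_T618I, a rise of 3.14 ± 0.16. Slc40a1, ferroportin, the exporter of iron, read 6.12, 6.26 and 6.25 with empty vector and 8.35, 8.37 and 8.0 with CSF3R_T618I, a rise of 2.03 ± 0.21, and Slc11a1, which moves iron out of phagosomes, rose by 0.99 ± 0.17. The genes that fell, named after their values were seen, were the transferrin receptors Tfrc and Tfr2 (−0.77 and −0.54), transferrin itself (Trf, −0.44), the endosomal reductase Steap3 (−0.79) and Ncoa4 (−0.47), which delivers ferritin to lysosomes. Of these only Steap3 held, and 1 to 3 of the list fell when any of the 6 arrays was left out, 1 without empty vector replicate A or CSF3R_T618I replicate A.

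Among ribosomal proteins, proteasome subunits, ribosome biogenesis genes and translation genes, 0 had a change that held. Of 37 cytosolic ribosomal proteins and 35 proteasome subunits 0 passed in limma or by the t-test, and 0 had an unadjusted p below 0.05, with changes of −0.19 to 0.10 and −0.24 to 0.16. Of 44 ribosome biogenesis genes 0 rose and 4 fell (0 held), Wdr12, Polr1b, Utp4 and Nob1, by 0.39 to 0.59, but 42 of the 44 changes were negative and the median was −0.20. Of 33 translation factors and tRNA synthetases 0 rose and 1 fell (Wars, 0 held), with a median of −0.10. The ribosome biogenesis median was −0.22 after median centring, −0.19 after quantile normalisation and −0.16 without CSF3R_T618I replicate C, while that of translation factors was −0.06 without this array. These shifts compare with a median of −0.03, −0.02 and −0.04 over all probe sets under the same settings. The exon controls, which are brighter than the median gene, had a median of −0.07 with every array. The mean of the ribosome biogenesis list was 10.19 to 10.21 on the empty vector arrays and 9.86 to 10.02 on the CSF3R_T618I arrays, without overlap.

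Of 33 unfolded protein response and chaperone genes 2 rose (1 held) and 5 fell (0 held), with a median of −0.23. Xbp1, the transcription factor of this response that plasma cells also need, read 11.38, 11.35 and 11.34 with empty vector and 12.25, 12.26 and 12.10 with CSF3R_T618I, a rise of 0.85 ± 0.09. Creld2 and Pdia6, factors of the endoplasmic reticulum, changed by −0.55 ± 0.13 and −0.48 ± 0.11, and neither held. With any of the 6 arrays left out 0 to 2 of the list fell, 0 without empty vector replicate B. Of 41 lysosomal genes 4 rose (2 held) and 0 fell, with a median of 0.13: Ctsl read 6.94, 6.64 and 6.51 with empty vector and 8.47, 8.30 and 8.46 with CSF3R_T618I. Ctss, a cathepsin protease like Ctsl, read 5.91, 5.75 and 6.35 with empty vector and 7.69, 7.51 and 7.12 with CSF3R_T618I. Neither gene's groups overlapped, and 2 of the list rose without empty vector replicate C or CSF3R_T618I replicate B. Of 30 autophagy genes 2 rose (0 held) and 1 fell (1 held), Atg12, an early conjugation factor, which read 10.68, 10.60 and 10.60 with empty vector and 10.07, 10.00 and 9.86 with CSF3R_T618I.

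**Figure D4:**
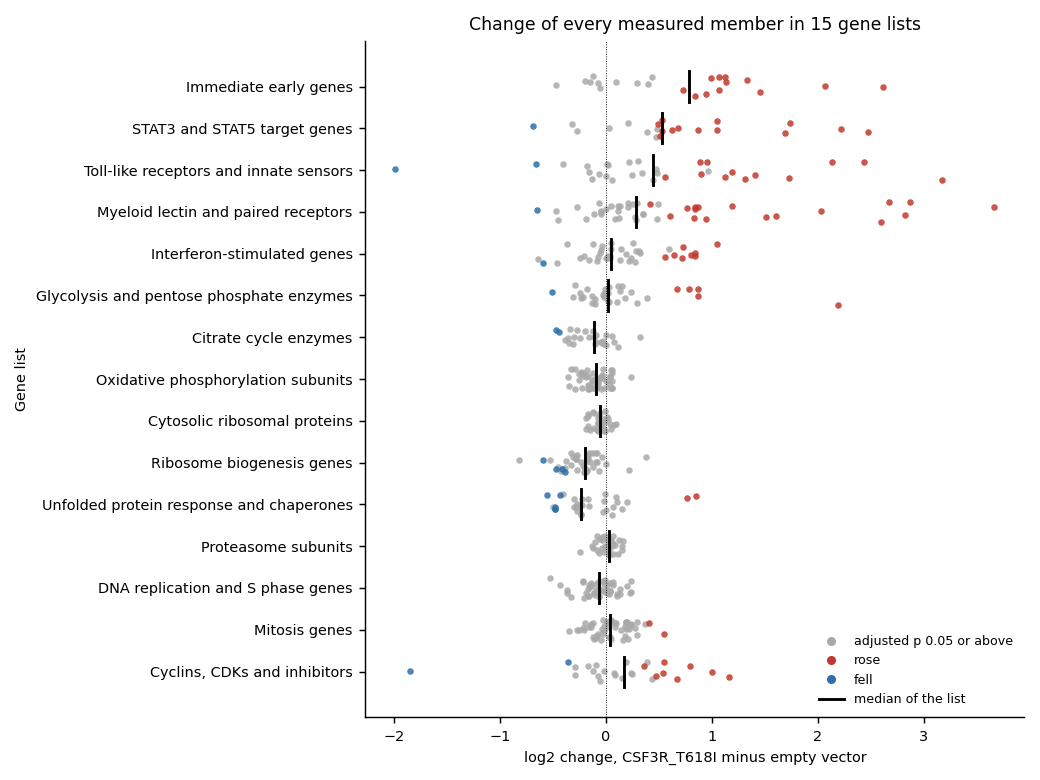
log2 change (CSF3R_T618I minus empty vector) of every measured member of 15 gene lists, each point 1 gene, red for members that rose, blue for members that fell and grey for the others, with a black bar at the list median. Immediate early and STAT target genes spread to the right, whereas ribosomal, respiratory and replication genes lie closer to 0.

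Among cell cycle genes, the changes that held were in cyclins, their regulators and E2F factors. Of 51 DNA replication genes 0 passed in limma or by the t-test (5 at an unadjusted p below 0.05), with a median of −0.06 that was 0.01 without CSF3R_T618I replicate C, and of 54 mitosis genes 2 rose (0 held), Kif14 and Mki67, by 0.55 and 0.41, close to the share of all probe sets. Of 26 cyclins, kinases and inhibitors 8 rose (5 held) and 2 fell (1 held), with a median of 0.17. Cdkn2d, the p19 inhibitor of CDK4 and CDK6, read 9.22, 8.92 and 8.52 with empty vector and 10.28, 10.15 and 9.70 with CSF3R_T618I, and Cdkn1a, the p21 inhibitor, read 10.15, 10.01 and 9.82 with empty vector and 10.77, 10.73 and 10.85 with CSF3R_T618I. Ccnd2, a cyclin that activates the same kinases, read 10.78, 10.78 and 10.90 with empty vector and 9.08, 9.0 and 8.85 with CSF3R_T618I, so inhibitors rose and this cyclin fell. The changes were 1.16 ± 0.19, 0.79 ± 0.14 and −1.84 ± 0.13. Cdc25b, a phosphatase that activates cyclin-dependent kinases, went up with the inhibitors, by 1.01 ± 0.17, and 5 of the list rose without replicate A or B of CSF3R_T618I, and as many without replicate A or C of the controls. Of 17 E2F and retinoblastoma genes 2 rose (2 held) and 1 fell (1 held): E2f7, a repressor E2F, read 8.38, 8.30 and 8.43 with empty vector and 9.0, 9.0 and 9.12 with CSF3R_T618I, E2f2, an activator, rose by 1.94 ± 0.13, and Tfdp2, a dimer partner of the E2Fs, read 8.53, 8.45 and 8.58 with empty vector and 7.93, 7.90 and 7.63 with CSF3R_T618I.

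In the BCL2 family 3 of 21 rose (3 held) and 1 fell (1 held). The survival genes moved in opposite directions: Mcl1 read 10.73, 10.72 and 10.56 with empty vector and 11.42, 11.32 and 11.32 with CSF3R_T618I and Bcl2l1 read 8.41, 8.52 and 8.64 with empty vector and 9.09, 9.12 and 8.95 with CSF3R_T618I, whereas Bcl2 read 10.24, 10.21 and 10.24 with empty vector and 9.07, 9.14 and 8.55 with CSF3R_T618I. The changes were 0.68 ± 0.10, 0.53 ± 0.10 and −1.31 ± 0.15. The proapoptotic Bcl2l11, which encodes BIM, rose as well, by 0.64 ± 0.11. Of 25 p53 target genes 4 rose (3 held) and 2 fell (0 held); Trp53inp1, a p53-induced nuclear protein, rose from background to 1.31 above it, and the rises of Btg2 and Cdkn1a are those given above.

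Among 33 progenitor and leukaemia transcription factors 1 rose (0 held) and 4 fell (3 held), with a median of −0.05 that was −0.12 without CSF3R_T618I replicate C. Ikzf2, the Ikaros family factor Helios, read 9.44, 9.53 and 9.43 with empty vector and 8.20, 8.36 and 8.19 with CSF3R_T618I, a fall with little spread on either side, with a change of −1.22 ± 0.12. Sox4 read 7.61, 7.73 and 7.64 with empty vector and 6.94, 7.15 and 6.71 with CSF3R_T618I, and Meis1, a partner of HOX proteins, differed by −0.59 ± 0.15 and did not hold. Of the 35 Hox genes measured 0 passed in limma or by the t-test, and 2 had an unadjusted p below 0.05. Among 36 granulocyte and monocyte fate factors 10 rose (7 held) and 0 fell, with a median of 0.19. Id2, an inhibitor of basic helix–loop–helix factors, read 7.19, 7.26 and 7.07 with empty vector and 9.29, 9.14 and 9.27 with CSF3R_T618I, and Rara, the retinoic acid receptor that acts in granulocyte maturation, read 6.16, 6.10 and 6.64 with empty vector and 8.53, 8.40 and 8.06 with CSF3R_T618I. Ahr, the aryl hydrocarbon receptor, read 6.89, 6.49 and 6.81 with empty vector and 7.93, 7.90 and 7.91 with CSF3R_T618I; the groups of all 3 were apart, by 2.06 ± 0.16, 2.03 ± 0.18 and 1.18 ± 0.13.

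Chromatin regulators stayed near the background share. Of 52, 1 rose (1 held) and 2 fell (1 held), with a median of −0.01. The rise was that of Kdm6b, a demethylase of the repressive H3K27 mark, which read 8.95, 9.16 and 9.30 with empty vector and 10.11, 9.95 and 10.16 with CSF3R_T618I. Dnmt3b, a de novo DNA methyltransferase, read 7.77, 7.94 and 7.93 with empty vector and 7.38, 6.93 and 6.85 with CSF3R_T618I and fell by 0.83. Kdm7a, a demethylase outside this list, rose from background to 2.83 above it.

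Of 39 interferon-stimulated genes 8 rose (2 held) and 1 fell (0 held), with a median of 0.05, and 3 rose when replicate A or B of CSF3R_T618I or replicate B or C of the controls was left out. Without empty vector replicate A 4 rose, as under median centring. Oas2 had the largest change of the list, 1.05 with an adjusted p of 3.14e-04 in limma, and held. Trim30a and Parp9 differed by 0.84 ± 0.20 and 0.80 ± 0.21, and neither held. The Schlafen and Ifitm families had 6 of 16 rising (6 held) and 1 falling (1 held), with a median of 0.35. Slfn4, a Schlafen of maturing myeloid cells, read 6.18, 6.21 and 5.84 with empty vector and 8.92, 8.67 and 8.71 with CSF3R_T618I, Slfn2 read 8.09, 7.95 and 8.09 with empty vector and 10.16, 10.12 and 10.01 with CSF3R_T618I, and Slfn1 rose from background to 2.10 above it. The p200 family had 3 of 8 rising (1 held) and 1 falling (0 held), most of them low. Members of all 3 families have near-identical copies, so which copy the probes read is uncertain.

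Of 32 MHC and antigen presentation genes 5 rose (2 held) and 3 fell (0 held), with a median of −0.11, and 2 rose without CSF3R_T618I replicate A or without replicate A or C of the controls. Icosl, a costimulatory ligand, read 7.39, 7.44 and 7.24 with empty vector and 8.42, 8.44 and 8.47 with CSF3R_T618I, with groups far apart for their spread, 1.08 ± 0.13. Of 42 complement and coagulation genes 8 rose (5 held) and 3 fell (2 held). Cfp, properdin, the stabiliser of the alternative complement pathway, read 9.10, 9.25 and 8.92 with empty vector and 10.42, 10.41 and 10.01 with CSF3R_T618I, and Anxa2, a receptor for plasminogen, rose by 1.35 ± 0.12. Thbs1, thrombospondin, read 12.06, 11.99 and 12.03 with empty vector and 11.24, 11.12 and 11.11 with CSF3R_T618I, and fell, as did the ficolin gene Fcnb, with changes of −0.87 ± 0.12 and −2.06 ± 0.23. Without replicate A or B of CSF3R_T618I, or replicate A or C of the controls, 5 of this list rose.

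Among protease and inhibitor families, 6 of 24 clade B serpins rose (4 held), 0 fell, and 13 of 24 lay at background in both groups. Serpinb10, which bone marrow cells express, read 9.02, 8.95 and 9.01 with empty vector and 10.76, 10.70 and 10.41 with CSF3R_T618I, a rise of 1.63 ± 0.16, and Serpinb2 and Serpinb9e rose from background to 4.44 and 3.00 above it. Of 19 mast cell and granzyme proteases 5 rose (3 held) and 2 fell (0 held). Mcpt1 read 3.42, 3.85 and 3.61 with empty vector and 9.89, 9.96 and 9.04 with CSF3R_T618I. Mcpt2 read 6.02, 6.01 and 5.83 with empty vector and 8.54, 8.90 and 7.90 with CSF3R_T618I. Mcpt4, counted among the rises, stayed under background in both groups, where a change cannot be measured. Probes of the Mcpt genes may read each other's transcripts, since these protease genes are close copies. The mast cell carboxypeptidase Cpa3 differed by −0.64 ± 0.16 and did not hold, and 3 of the list rose without any 1 of the empty vector arrays or without CSF3R_T618I replicate B or C. Of 31 metalloproteinases and inhibitors 5 rose (4 held) and 1 fell (0 held), with a median of 0.06 that was −0.13 without CSF3R_T618I replicate C. Adam8, a membrane protease of myeloid cells, read 7.09, 7.48 and 7.05 with empty vector and 9.37, 9.32 and 9.22 with CSF3R_T618I, and Timp2, an inhibitor of metalloproteinases, read 5.74, 5.97 and 5.90 with empty vector and 7.29, 7.38 and 7.21 with CSF3R_T618I, so a protease and an inhibitor rose together, by 2.10 ± 0.14 and 1.42 ± 0.11.

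Of 44 solute carriers of ions, nucleosides and metals 5 rose (5 held) and 5 fell (2 held), and 3 fell without any 1 of the empty vector arrays or without CSF3R_T618I replicate C. Slc22a15 read 6.87, 7.03 and 6.88 with empty vector and 8.68, 8.63 and 8.33 with CSF3R_T618I, a rise of 1.62 ± 0.12, and Slc39a8, an importer of zinc and manganese, read 8.29, 8.22 and 8.18 with empty vector and 9.33, 9.29 and 8.92 with CSF3R_T618I. Slco4c1 reached only 0.46 above background. Slc26a11, counted among the rises, lay under background in both groups, where a change cannot be measured. Of 52 glycosyltransferases and sulfotransferases 7 rose (4 held) and 6 fell (4 held), with a median of −0.05, and 4 rose without empty vector replicate B. B3gnt5, which starts the lacto-series glycolipids, read 8.13, 7.83 and 8.01 with empty vector and 6.49, 5.99 and 5.61 with CSF3R_T618I and fell by 1.96; Fut8, the enzyme of core fucose, read 11.06, 11.01 and 10.91 with empty vector and 10.30, 10.42 and 9.93 with CSF3R_T618I and fell by 0.77. Gcnt2, which makes branches on such chains, read 8.48, 8.55 and 8.39 with empty vector and 9.99, 9.95 and 9.54 with CSF3R_T618I, and Galnt6, which starts O-linked chains, rose by 0.79 ± 0.12.

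Outside the neutrophil lists, the largest rises above background included secreted, surface and vesicle genes. Saa3, an acute-phase serum amyloid, read 7.05, 6.82 and 7.12 with empty vector and 10.85, 10.69 and 10.57 with CSF3R_T618I. Tarm1, an activating receptor of myeloid cells, read 7.66, 7.68 and 7.70 with empty vector and 11.43, 11.39 and 11.14 with CSF3R_T618I. Both stood more than 3 log2 units apart between groups, with an SE of 0.15 each. Dmxl2, a partner of the vesicle proton pump, read 6.94, 6.91 and 7.41 with empty vector and 10.48, 10.42 and 10.17 with CSF3R_T618I. Fam20c, a kinase of secreted proteins, read 6.53, 6.63 and 6.25 with empty vector and 9.43, 9.65 and 9.56 with CSF3R_T618I, and Ambp, the precursor of α1-microglobulin, rose by 3.41 ± 0.27. Cmah, the enzyme that makes N-glycolylneuraminic acid, read 6.38, 6.13 and 6.24 with empty vector and 9.57, 9.15 and 9.21 with CSF3R_T618I and Lilr4b rose by 3.11 ± 0.19. From the background level, P2ry13, a receptor for ADP, rose to 3.42 above it, at least 10.7-fold, and Sirpb1c to 4.56 above it, at least 23.6-fold.

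Among the largest falls that stayed above background were those of surface and cytoskeletal genes. Mc5r, a melanocortin receptor, read 8.77, 8.70 and 8.32 with empty vector and 5.80, 6.47 and 6.14 with CSF3R_T618I. Bex6 read 8.52, 8.16 and 7.89 with empty vector and 6.10, 6.27 and 5.71 with CSF3R_T618I. Ablim1, an actin-binding LIM protein, read 10.11, 10.34 and 10.13 with empty vector and 8.36, 8.38 and 8.02 with CSF3R_T618I, and Spns2, the exporter of sphingosine-1-phosphate, read 10.80, 10.81 and 11.11 with empty vector and 9.13, 9.19 and 9.04 with CSF3R_T618I. In these 4 genes every CSF3R_T618I array lay more than 1 log2 unit below every control. Glcci1 fell by 1.86, Epha7, a receptor for ephrin-A ligands, by 1.73 and Afap1, which links actin filaments to Src, by 1.72. Phactr2 and Rgs9bp fell to the background level from 1.51 and 1.32 above it. The X-linked Xlr4c and Xlr4b, close copies of each other, fell to background by at least 0.25 and 1.05. Tnnt2 was lower, at background with CSF3R_T618I and 0.84 above it with empty vector, with overlapping groups, and did not hold.

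Stem and progenitor surface genes were the list with the largest share of falls: 6 of 16 fell (6 held) and 2 rose (2 held), with a median of −0.18. The largest change in it, −2.51, was that of Angpt1, the Tie2 ligand already counted among the cytokines and itself no surface receptor. Adgrg1, an adhesion receptor of stem cells, read 11.39, 11.45 and 11.56 with empty vector and 9.95, 10.02 and 9.61 with CSF3R_T618I. Prom1, which encodes the progenitor antigen CD133, rose against this direction and read 6.90, 6.20 and 6.40 with empty vector and 8.60, 8.21 and 7.88 with CSF3R_T618I, a change of 1.73 ± 0.22. Markers of other cell types changed in both directions, with 0 to 3 members per list passing in either direction. In lists of 14 to 18 genes, 1 member is already 5.56% to 7.14%. Any single change therefore exceeds the shares of all probe sets (3.75% rose, 2.65% fell), and these counts are no result about the lists. Of 14 erythroid and megakaryocyte markers 0 rose and 1 fell (7.14%, 1 held). Of 18 monocyte, macrophage and dendritic markers 3 rose (16.7%, 3 held) and 1 fell (5.56%, 1 held). Of 16 eosinophil, basophil and mast cell markers 1 rose (6.25%, 0 held) and 2 fell (12.5%, 0 held), and of 15 lymphoid markers 1 rose (6.67%, 1 held) and 2 fell (13.3%, 2 held). Their list means on the empty vector and CSF3R_T618I arrays were 6.56 to 6.65 and 6.44 to 6.69 (erythroid), 6.34 to 6.44 and 6.40 to 6.60 (monocytic), 8.04 to 8.06 and 7.88 to 8.06 (eosinophil, basophil and mast cell), and 5.60 to 5.69 and 5.57 to 5.90 (lymphoid). The highest erythroid, monocytic and lymphoid means were those of CSF3R_T618I replicate C, and their part in the results was not tested.

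Families defined only by their symbols gave a second count. It is not an independent one, since the families were chosen with earlier results known and share genes with the lists above. Of 1091 olfactory receptors 2 rose and 1 fell (0.183% and 0.0917%), of 321 vomeronasal receptors 2 rose and 0 fell, and 937 and 315 of them lay at background in both groups. Krüppel-like factors had 5 of 17 rising (29.4%, 4 held) and 1 falling (5.88%). Interleukins and their receptors had 15 of 76 rising (19.7%, 13 held) and 3 falling (3.95%). TNF receptors had 3 of 20 rising (15%, 1 held) and 0 falling. CD-named surface molecules had 11 of 90 rising (12.2%, 7 held) and 5 falling (5.56%). Zinc finger proteins named Zfp had 4 of 358 rising (1.12%) and 19 falling (5.31%), with a median of −0.13 that was −0.10 without CSF3R_T618I replicate C. Mitochondrial ribosomal proteins (76 measured), initiation factors (48) and complex I subunits and factors (46) had 0 past the threshold in limma, against 14, 6 and 7 at an unadjusted p below 0.05 and 1 in each family by the t-test, with medians of −0.11, −0.10 and −0.14 that were −0.08, −0.03 and −0.05 without that array.

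The same mutation was also measured on the CEBPA_V314VW background, in 6 arrays that share none with the comparison above. Of the 302 probe sets called higher, 300 also had a positive difference between cells with both mutations and cells with CEBPA_V314VW alone, and of the 77 called lower 75 had a negative difference; the median changes were 1.56 and 1.44 for the first set, and −1.31 and −1.20 for the second. The share of all probe sets with the same sign was not counted, so these counts have no background share beside them. Among the 302, 48 rose from background, and among the 77, 11 fell to it, so the sizes of these changes, which enter the medians, are uncertain. Since calls were made on 1 of the effects compared, a smaller value on the other is not evidence of a weaker effect, for the medians or for counts of interactions. The interaction, the difference between these effects, passed an adjusted p below 0.05 in 72 of all 22142 probe sets (0.325%), among them 32 of the 302 and 2 of the 77. Of the 32, 22 had a smaller effect with CEBPA_V314VW and the others a larger one. The 2 lower calls had a smaller effect. Slc2a3 changed by 2.19 alone and by 0.97 with CEBPA_V314VW (interaction −1.22 ± 0.19), Cmah by 3.06 and 1.66 (−1.40 ± 0.18), Ccl6 by 2.01 and 0.75 (−1.26 ± 0.18) and Nfkbia by 1.41 and 0.61 (−0.80 ± 0.15). Id2 was affected more strongly with CEBPA_V314VW, by 3.30 against 2.06 (1.24 ± 0.22). An interaction that missed the threshold does not show equal effects.

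**Figure D5:**
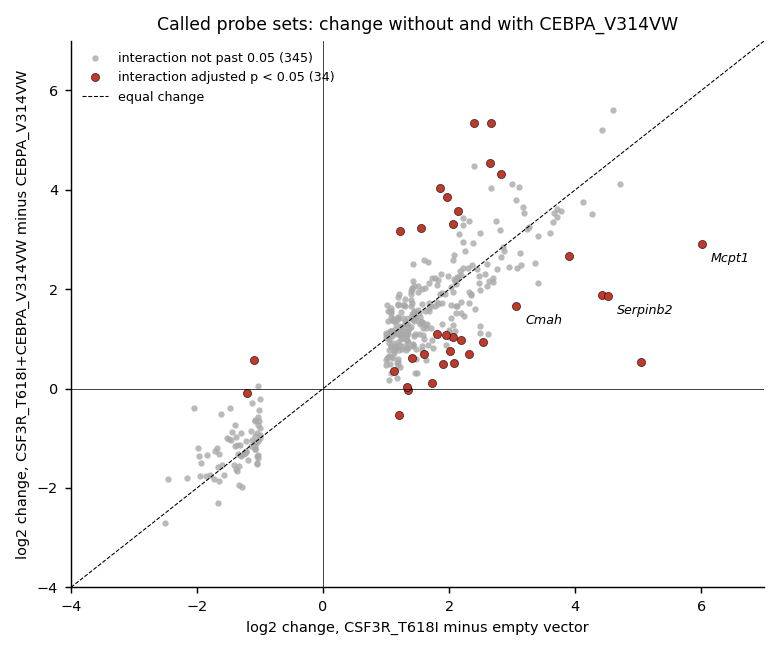
log2 change of the 379 called probe sets without CEBPA_V314VW (horizontal axis, CSF3R_T618I minus empty vector) and with it (vertical axis, both mutations minus CEBPA_V314VW), with the dashed line marking equal change. Red points are the 34 probe sets with an interaction at an adjusted p below 0.05, among them Cmah below the line, and Mcpt1 and Serpinb2. The other 345 points are grey. Of the higher calls 48, Mcpt1 and Serpinb2 among them, had an empty vector mean at background. Of the lower calls 11 had a CSF3R_T618I mean at background. The positions of all these points are not measured changes.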

How the data were processed

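RNA of HoxB8-ER cells was hybridised to Clariom S Mouse arrays, 1 array per sample and 3 per group. The deposited values are log2 signals that the authors made with Affymetrix Expression Console and its robust multi-array average, which corrects background, sets all arrays to a common distribution and summarises probes to probe sets; sample order was randomised before cDNA synthesis, per the study's methods. Probe sets were named through the platform annotation, and 22142 gene probe sets were tested. Differences were fitted on the log2 values with limma 3.58.1 in R 4.3.3 (lmFit and eBayes, 1 mean per group over 12 arrays), p-values were adjusted over all of them (Benjamini-Hochberg), and a probe set was called at an adjusted p below 0.05 and at least 2-fold. The fit was checked on data made with known changes. A symbol with several probe sets is represented by 1 of them.

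Genes are named by rule: Csf3r, Cebpa and Hoxb8, the 12 largest rises and falls above background outside the neutrophil and primary granule lists, 6 rises from and 6 falls to background, and up to 4 genes per list with the largest changes; others are marked as chosen after their values were seen. The members, lists and families were chosen with earlier results of these data known. Some genes are not reported here. A fold from background is set against the highest background control mean of any array, 5.27. Promoter windows came from RefSeq (GRCm38.p6). The authors' own comparisons, made in other software, were not used. Families with close copies (Stfa, Cstdc, Chil, Ifi, Mcpt, Serpinb, Slfn, Ifitm, Xlr4, Pir, Lilr, Cd300 and Pilr) may share probes, so values of a single copy are uncertain.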

Additional observations from a re-analysis of the deposited data

Results flagged for a closer look

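Among the probe sets outside the gene measurement, 2 of the 1324 exon controls were higher with CSF3R_T618I at an adjusted p below 0.05 (limma), with a largest change of 1.75. They were singled out because they show a signal in data that the comparison itself does not use. Single values were not searched for outlying samples, since each group held 3 arrays.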

How the results depend on the processing

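The counts of probe sets moved more than the calls with a fold limit. Of 830 that rose and 586 that fell in the 12-array fit, other settings gave 1522 and 1509 with array weights, 1021 and 960 with an intensity trend, and 457 and 225 by the methods' t-test at a false discovery rate of 5%; the 302 higher and 77 lower calls became 234 and 48 by that t-test. With 1 array left out, between 608 and 847 rose, between 295 and 609 fell, and 288 to 331 were called higher and 67 to 94 lower; the fewest falls came with a control array left out (295 for replicate A, 314 for B and 382 for C), or an array of CSF3R_T618I (458, 399 and 360). Leaving out replicate C of CSF3R_T618I and replicate C of the cells with both mutations, which had low array weights and high background, an alternative chosen after seeing the data, gave 780, 420, 333 and 67. The 6 arrays alone, median centring, quantile normalisation and a filter on dim probe sets kept all 4 counts within 1.5 times. The cause of these differences was not tested, except that leaving arrays out leaves fewer samples.

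Arrays of the same letter did not deviate together (correlations of 0.06, −0.07 and −0.13 for A, B and C), and not every array correlated best with its own letter, so the letters were not taken as pairs; with the replicate block 753 rose, 446 fell, 303 were called higher and 75 lower. Of 205 named genes that passed, 123 passed in the same direction under each of the 21 other settings, 82 were lost under at least 1, and 0 reversed.

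With 3 arrays per group, 1 cell line and 1 time point, changes of single probe sets near the median residual SD of 0.19 cannot be separated from the spread. For 5861 probe sets both group means were at or below background, where differences between transcripts cannot be measured.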
